A study of Homo sapiens with 4 samples.

Results

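The LRRC8 family encodes the subunits of the volume-regulated anion channel, and all 5 of its members, LRRC8A, LRRC8B, LRRC8C, LRRC8D and LRRC8E, were found by symbol among the 58051 rows of the count table. They were measured in IGROV1, an established human ovarian carcinoma line, in a cisplatin-resistant derivative (CR) and in the wild-type parent (WT). The CR cells had been exposed to rising cisplatin concentrations for 4 hours at a time, with 3 weeks of drug-free growth between exposures, through 6 cycles in 5 months. Both lines were harvested untreated, in log growth, and poly(A) RNA of 2 replicates of each was sequenced. Each group is 1 line, and the labels say neither whether its replicates were grown apart nor whether the CR line is a clone or a mixed population. The p-values below therefore reflect how far these libraries vary, which may be technical, and carry no information on other resistant lines.

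LRRC8 proteins assemble into large-pore channels that open when a cell swells and let chloride and organic osmolytes out, so that water follows and volume recovers. LRRC8A is the subunit that every functional channel needs, and the other members set which substrates pass. Channels that hold LRRC8A with LRRC8D are known to carry uncharged or larger osmolytes such as taurine and to admit cisplatin into cells, and loss of either subunit is known to reduce platinum uptake and sensitivity. The comparison thus asks whether the drug-free RNA level of these subunits differs between the resistant line and its parent. The libraries do not measure protein, channel assembly or transport.

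None of the 5 subunits changed past the threshold. By edgeR's quasi-likelihood test, 0 of 5 LRRC8 genes had an adjusted p (Benjamini-Hochberg) of 0.05 or less, beside 13.5% of the 17304 genes tested (5.44% higher and 8.1% lower in CR). At an unadjusted p of 0.05 the count was also 0 of 5, beside 26.1% of all genes. DESeq2 called 0 of 5 (15.1% of all genes) and limma-voom 0 of 5 (13.5%). The count stayed at 0 with RLE factors or library size alone (13.6% of all genes each), without a low-count filter (10.2%), with a stricter one (7.39%), with the replicate number as a block (16%) or crossed (20.1%), and with offsets for GC content and length (21.2%). With a library left out it was 0 without CR 1 (7.77% of all genes), CR 2 (8.4%) or WT 1 (40.1%), and 1, LRRC8B, without WT 2 (42.8%). All 5 passed the low-count filter. Of the 5 subunits, 4 had a higher estimate in CR and LRRC8A had a lower one. Their log2 fold changes (CR minus WT) ran between -0.19 and 0.57, beside a median of -0.01 over all genes tested. LRRC8D and LRRC8E were the members whose CR libraries both lay above both WT libraries in CPM (counts scaled to the TMM-adjusted library size), and the other 3 overlapped. Such separation was common: 55.3% of all genes showed it, 27% with CR above WT and 28.2% with CR below. RNA was taken from whole cultures, so fewer cells making a transcript and less of it per cell cannot be told apart.

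Libraries held 24008899 to 24727362 counts in CR and 23886257 to 24264458 in WT. All 10 markers fixed for ovarian carcinoma epithelium had at least 1 CPM in every library, with a summed level of 2779 to 2913 CPM in CR and 3666 to 5237 CPM in WT. Its members differed in direction: KRT8 had 636 and 620 CPM in CR and 1760 and 1485 CPM in WT, while EPCAM had 194 and 224 CPM in CR and 113 and 118 CPM in WT. Leucocyte markers summed to 1.91 to 2.41 CPM in CR and 1.76 to 1.93 CPM in WT. Fibroblast markers summed to 3.15 to 3.44 CPM in CR and 34.6 to 59.5 CPM in WT, where COL1A1 made up most of it, with DCN and LUM at 0 counts in all libraries. Endothelial markers summed to 29.8 to 33.6 CPM in CR and 67.2 to 86.1 CPM in WT, mostly VWF in CR and VWF and CDH5 in WT, with KDR at 0 counts. The part of these markers in the LRRC8 values was not tested. The WT replicates differed from each other with the base composition of the transcripts: across 9907 protein-coding genes the log2 ratio of WT 1 to WT 2 followed the GC content of the longest annotated transcript with a Spearman coefficient of 0.71, against 0.171 for CR 1 to CR 2. Genes are not independent replicates, so these coefficients are descriptive only. How far base composition accounts for the WT values of LRRC8B below was not tested.

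LRRC8A (chromosome 9, 128882112 to 128918039, plus strand; GRCh38, GENCODE 29), the obligatory subunit, held 1354 and 1197 counts in the CR libraries and 1224 and 1542 in the WT libraries. Scaled to library size these were 53.9 and 49.0 CPM in CR and 52.4 and 64.6 CPM in WT. The groups overlapped, and WT 2 was the highest library. Its mean was 51.4 ± 3.50 CPM in CR and 58.5 ± 8.58 CPM in WT (SD; n = 2 in each group, as for every SD below). The log2 fold change was -0.19, with a 95% interval of -0.70 to 0.33 (edgeR adjusted p = 0.673). Given the spread of LRRC8A, a change of 1.78-fold would have been needed to pass. The interval thus reaches from 0.614 to 1.26 times the WT level.

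LRRC8D (chromosome 1, 89821014 to 89936611, plus strand), the partner associated with cisplatin and taurine transport, had 71.0 and 72.2 CPM in CR and 57.4 and 58.0 CPM in WT. Its replicates were close to each other in both groups, and the CR libraries both lay above the WT libraries. The mean was 71.6 ± 0.857 CPM in CR and 57.7 ± 0.451 CPM in WT, a ratio of 1.24. This did not pass (log2 fold change 0.31, 95% interval -0.15 to 0.77; edgeR adjusted p = 0.389). The test moderates each gene's spread towards that of genes of like abundance, and of 10202 genes whose mean log2 CPM was 3 or more, 2.3% had a tighter WT pair than LRRC8D. A change of 1.67-fold would have passed. The lower end of the interval, 0.901 times the WT level, is the largest decrease it allows for this subunit.

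LRRC8B (chromosome 1, 89524836 to 89597864, plus strand), a subunit that joins LRRC8A and whose own substrates are less well known, had 32.0 and 30.8 CPM in CR and 14.1 and 31.5 CPM in WT. WT 1 stood apart, with less than the other 3 libraries, and WT 2 lay between the CR libraries. The 2.23-fold gap between the WT replicates was larger than that of 95.1% of the same 10202 genes. The log2 fold change was 0.46 (95% interval -0.43 to 1.35; edgeR adjusted p = 0.522). It turned to -0.01 without WT 1 (edgeR adjusted p = 0.969) and rose to 1.15 without WT 2 (edgeR adjusted p = 4.53e-10), so 1 library decided both its size and its direction. With either WT library left out the spread comes from the CR pair alone, and the lone WT library is assumed to vary like it.

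The longest transcript of LRRC8B has 8034 bases and a GC content of 39.0%. Among 807 protein-coding genes within 1 percentage point of that GC content, the median log2 ratio of WT 1 to WT 2 was -0.52, against -1.15 for LRRC8B itself. LRRC8C has a similar composition (38.1% GC) and a log2 ratio of -0.28. With offsets for GC content and transcript length, an alternative chosen after seeing the data, LRRC8B had 29.3 and 30.6 CPM in CR and 18.7 and 26.1 CPM in WT. The groups then no longer overlapped, and the difference still did not pass (log2 fold change 0.41; edgeR adjusted p = 0.191). LRRC8D remained above WT under the same offsets, with 71.0 and 71.5 CPM in CR and 63.3 and 53.2 CPM in WT (log2 fold change 0.29; edgeR adjusted p = 0.208).

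LRRC8C (chromosome 1, 89633072 to 89769903, plus strand), known as a partner in cGAMP transport and in T cells, had 30.9 and 29.4 CPM in CR and 24.1 and 29.4 CPM in WT. WT 1 was again the lowest library, and the groups met at their edges, with CR 2 a little under WT 2. The log2 fold change was 0.17 (95% interval -0.36 to 0.71; edgeR adjusted p = 0.709), and 1.82-fold would have been needed to pass. With the offsets for GC content and length, LRRC8C had 28.7 and 28.8 CPM in CR and 31.8 and 24.5 CPM in WT. On that scale WT 1 was its highest library and the log2 fold change was 0.03 (edgeR adjusted p = 0.917).

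The LRRC8C promoter is shown because its neighbour LRRC8C-DT, a divergent noncoding transcript, starts from the same stretch on the other strand. The sequence is the RefSeq window of 250 bases before to 50 after the LRRC8C start (GRCh38.p14, chr1:89632870-89633169, plus strand). Capitals mark the 227 bases from the LRRC8C-DT start to the LRRC8C start, both included.
LRRC8C: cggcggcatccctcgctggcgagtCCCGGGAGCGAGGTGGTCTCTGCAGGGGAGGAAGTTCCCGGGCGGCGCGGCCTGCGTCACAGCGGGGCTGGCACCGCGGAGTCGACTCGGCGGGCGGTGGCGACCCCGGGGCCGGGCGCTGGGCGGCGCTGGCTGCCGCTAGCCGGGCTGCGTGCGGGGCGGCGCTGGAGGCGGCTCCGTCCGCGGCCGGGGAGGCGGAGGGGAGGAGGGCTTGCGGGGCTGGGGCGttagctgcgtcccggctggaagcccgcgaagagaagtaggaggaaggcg
LRRC8C-DT (chromosome 1, 89583241 to 89632894, minus strand) held 5 and 4 counts in CR and 12 and 17 in WT, where both WT libraries lay above both CR libraries. Its log2 fold change was -1.73 (95% interval -3.15 to -0.31; edgeR adjusted p = 0.119), which did not pass. It was picked for its position beside LRRC8C. The 2 transcripts of this promoter thus had estimates of opposite sign, neither of them past the threshold. LRRC8C-DT also shares 246 exon bases with LRRC8B on the opposite strand.

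LRRC8E (chromosome 19, 7888505 to 7902021, plus strand), a partner known from epithelia and from cGAMP transport, was the lowest member, with 75 and 64 counts in CR and 41 and 48 in WT. In CPM these were 2.99 and 2.62 in CR and 1.76 and 2.01 in WT, with both CR libraries above both WT libraries. The mean ratio was 1.49, the largest of the family. It did not pass (log2 fold change 0.57, 95% interval -0.29 to 1.43; edgeR adjusted p = 0.399), and at its depth a change of 2.61-fold would have been needed.

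**Figure D1:**
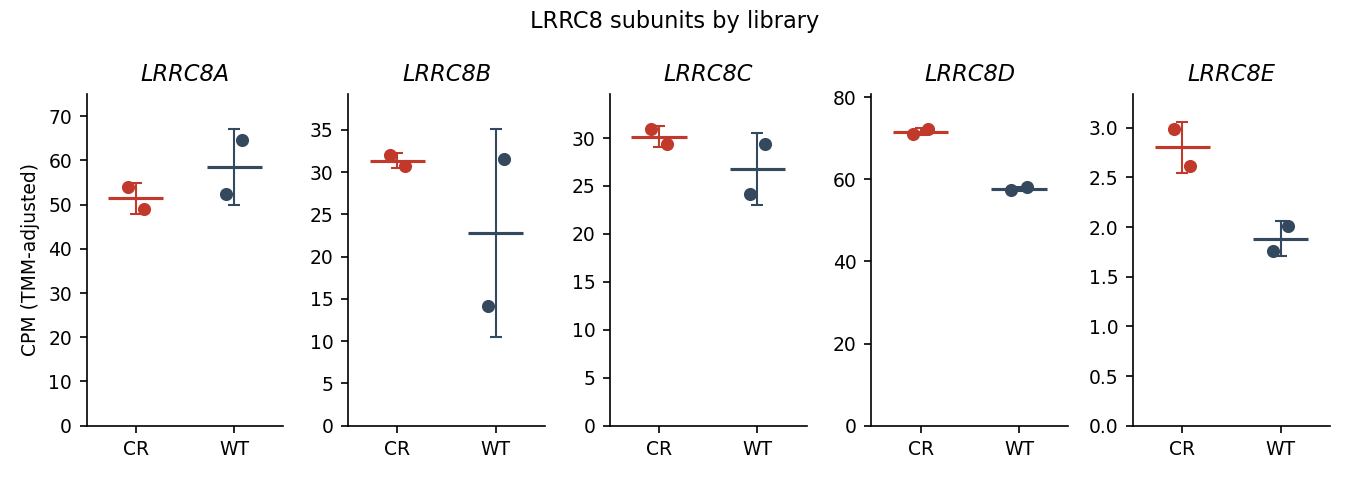
CPM of each LRRC8 subunit in the CR (left) and WT (right) libraries, with a separate vertical axis from 0 for each gene; points are libraries, long bars are means and error bars are SD (n = 2). LRRC8D and LRRC8E show CR libraries above WT libraries, while WT 1 of LRRC8B, at 14.1 CPM, stands apart from the other 3 libraries.

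**Figure D2:**
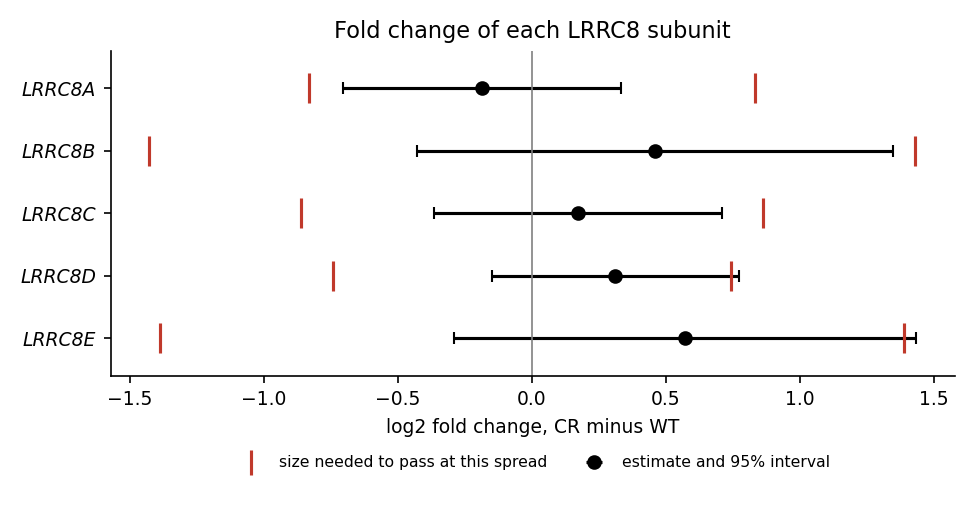
Log2 fold change (CR minus WT) of each LRRC8 subunit with its 95% interval from the edgeR fit (black), and the size that would have passed at that gene's spread (red ticks). All 5 intervals include 0 and no estimate reaches its red tick.

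The intervals describe how far each subunit could have moved given the spread of these libraries, which may be technical. Each is a 95% interval for its own gene, so they give no joint bound over the family. A decrease to under 0.614 times the WT level lies outside the interval of every subunit, and LRRC8A is the member whose interval reaches lowest. An increase to over 1.71 times the WT level lies outside the intervals of LRRC8A, LRRC8C and LRRC8D, while those of LRRC8B and LRRC8E reach 2.54 and 2.70 times. Summed over the family, the 5 genes took 191 and 184 CPM in CR and 150 and 185 CPM in WT (187 ± 4.86 CPM in CR, 168 ± 25.2 CPM in WT), and the groups overlapped.

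To compare the subunits with each other, CPM was divided by the length of all annotated exons (RPKM). On this scale LRRC8D had the highest mean level, 14.8 ± 0.177 RPKM in CR and 11.9 ± 0.0930 RPKM in WT. LRRC8A came next in level, with 9.83 ± 0.668 RPKM in CR and 11.2 ± 1.64 RPKM in WT. In WT the levels of LRRC8D and LRRC8A did not differ beyond the spread, and their order turned round in WT 2. LRRC8B had a level of 3.82 ± 0.104 RPKM in CR and 2.78 ± 1.49 RPKM in WT, and LRRC8C one of 2.57 ± 0.0944 RPKM in CR and 2.28 ± 0.318 RPKM in WT. The levels of this pair were separate in CR but not in WT, where WT 1 gave LRRC8C above LRRC8B. LRRC8E was lowest in each library, with a level of 0.647 ± 0.0601 RPKM in CR and 0.435 ± 0.0414 RPKM in WT. Among 13544 protein-coding genes tested, LRRC8D exceeded 77.1% in level in CR and 71.1% in WT, LRRC8A 67.3% in CR and 69.5% in WT, and LRRC8E 17.1% in CR and 13% in WT.

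The level of LRRC8E is the least certain of these. The exons of an antisense gene, AC010336.1, cover 74.3% of its exon bases, and that gene held 11 counts over all libraries. The sources used here do not say how the counting treated strand. Of 21 protein-coding genes with at least 95% of their exon bases under exons of the opposite strand, 1 held 100 counts or more over the 4 libraries, against 60.9% of 16042 genes with less than 5% covered. In the range that holds LRRC8E, 50% to 95% covered, 49% of 151 genes did, and at 5% to 50% covered 74.7% of 3523 did. Median counts over the 4 libraries were 738.5 under 5% covered, 1568 at 5% to 50% and 83 at 50% to 95%. How far the overlap lowers the LRRC8E level was not tested. Divided by the 1111 exon bases that it shares with no other gene, its level would be 2.52 ± 0.234 RPKM in CR and 1.70 ± 0.161 RPKM in WT, close to LRRC8C at 2.65 ± 0.0971 RPKM in CR and under it at 2.35 ± 0.328 RPKM in WT. LRRC8E stayed last in each library on this scale too. The annotated exon length of LRRC8C, 11724 bases for a coding length of 2409, also lowers its value, and per coding length LRRC8C had a level of 12.5 ± 0.459 RPKM in CR and 11.1 ± 1.55 RPKM in WT.

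The promoters of the subunits with the highest and lowest level are printed with their GC boxes in capitals (GGGCGG or its complement CCGCCC, searched on both strands, overlapping matches merged). Both windows run from 250 bases before to 50 after the RefSeq start, GRCh38.p14, plus strand, at chr1:89820782-89821081 for LRRC8D and chr19:7888260-7888559 for LRRC8E.
LRRC8D: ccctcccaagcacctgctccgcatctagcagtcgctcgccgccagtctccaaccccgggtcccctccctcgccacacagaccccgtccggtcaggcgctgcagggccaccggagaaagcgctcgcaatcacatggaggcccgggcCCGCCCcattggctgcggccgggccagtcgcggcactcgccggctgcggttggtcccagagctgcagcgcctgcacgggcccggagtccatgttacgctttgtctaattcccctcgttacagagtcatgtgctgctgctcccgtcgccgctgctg
LRRC8E: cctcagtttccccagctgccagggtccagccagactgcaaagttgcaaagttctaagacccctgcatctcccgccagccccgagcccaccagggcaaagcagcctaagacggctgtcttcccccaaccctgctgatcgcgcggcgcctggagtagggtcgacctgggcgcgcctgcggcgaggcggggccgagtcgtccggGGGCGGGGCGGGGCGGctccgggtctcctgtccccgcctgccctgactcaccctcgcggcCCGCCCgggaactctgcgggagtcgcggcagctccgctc
The LRRC8D window held 1 GC box and the LRRC8E window 4, as did that of LRRC8C, while 44.9% of 34943 promoter windows of this length held at least 1. LRRC8A had 2 and LRRC8B 1. GC content of the windows was 66.7% for LRRC8A, 67.3% for LRRC8B, 78.0% for LRRC8C, 69.0% for LRRC8D and 71.7% for LRRC8E, and that of LRRC8C exceeded 95.1% of all windows. CCAAT, on either strand, was present once in LRRC8B and in LRRC8D and in 34.6% of all windows. TGGAAA, the invariable part of the tonicity element bound by NFAT5, had no match in any of the 5 windows and one in 20.8% of all windows. These matches describe letters and not binding.

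In the make-up of the family, LRRC8A had a lower share and LRRC8E a higher one in both CR libraries than in both WT libraries. LRRC8A made up 32.0% and 30.1% of the summed LRRC8 level (RPKM) in CR and 38.5% and 39.7% in WT, a difference of -8.02 percentage points between group means (CR minus WT) with no overlap. LRRC8D made up 45.5% and 47.9% in CR and 45.4% and 38.4% in WT. LRRC8E accounted for 2.14% and 1.94% in CR and 1.56% and 1.49% in WT. The ratio of LRRC8D to LRRC8A levels was 1.42 and 1.59 in CR and 1.18 and 0.969 in WT. Each of the other subunits also had a higher ratio to LRRC8A in both CR libraries than in both WT libraries. All these ratios and the LRRC8A share rest on the same LRRC8A values, so they are not separate observations. In CPM alone 55.3% of all genes did not overlap between the groups, and how common this is for ratios of genes was not computed. The LRRC8 shares were chosen after the levels were seen and have no test, since 2 against 2 libraries cannot give an exact two-sided permutation p under 0.333. Per coding length the LRRC8A share was 28.8% and 27.1% in CR and 35.7% and 35.3% in WT. Per unshared exon base it was 29.1% and 27.4% in CR and 35.6% and 36.8% in WT. The lower share in CR on these scales was fixed by the ratios above. A gene's length is the same in every library, so no choice of length could have reversed it. With the offsets for GC content and length, the LRRC8A share was 31.9% and 30.8% in CR and 33.0% and 45.1% in WT, still without overlap, but WT 1 then lay close to CR. On that scale the ratio of LRRC8C to LRRC8A was 0.245 and 0.257 in CR and 0.299 and 0.152 in WT, so these groups overlapped. The ratio of LRRC8D to LRRC8A was then 1.47 and 1.54 in CR and 1.44 and 0.796 in WT, with WT 1 just below CR.

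**Figure D3:**
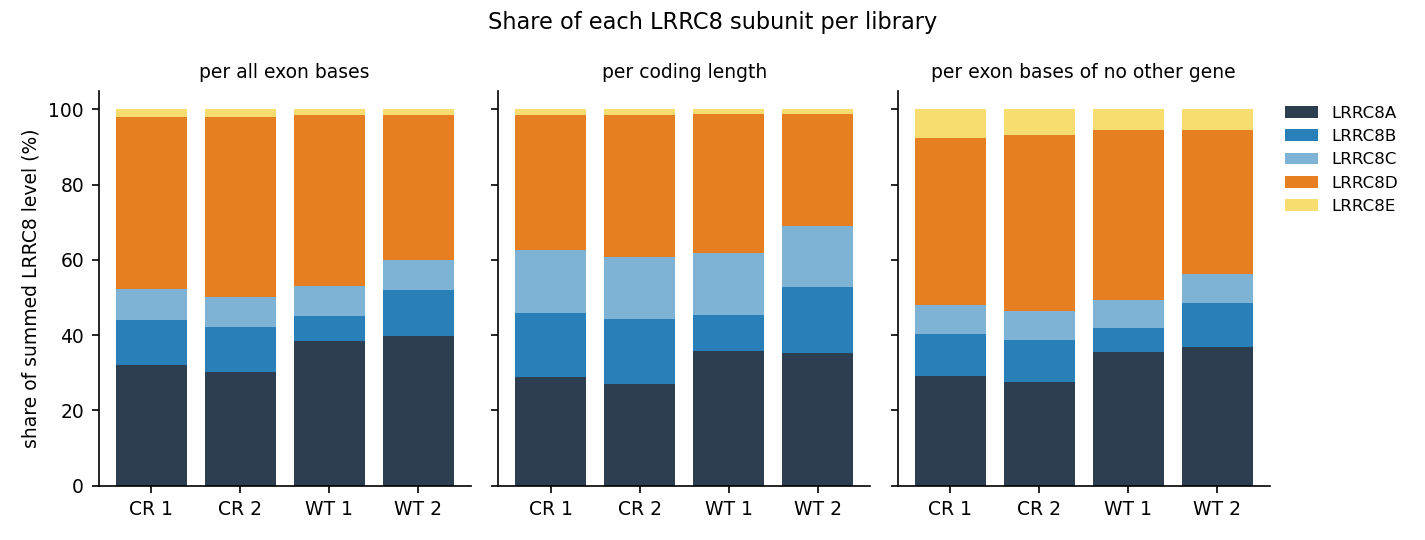
Share of each subunit in the summed per-length LRRC8 level (%), one stacked bar per library with CR left of WT, with levels taken per base of all exons, per coding base and per exon base that no other gene shares. The LRRC8A block is smaller in both CR bars than in both WT bars in all 3 panels. Each gene's length is the same in every library, so the panels are not separate support for this. Relative to their own size, the LRRC8C and LRRC8E blocks change most with the length used. The LRRC8D block also changes, from a mean of 46.7% per base of all exons to 36.8% per coding base in CR.

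The 5 members did not follow 1 common pattern over the 4 libraries. On log2 CPM, each centred on its own mean, the root mean square distance was least between LRRC8C and LRRC8D (0.121) and largest between LRRC8A and LRRC8B (0.481). Among 13543 protein-coding genes, the nearest patterns to LRRC8A were those of TRIM25 (distance 0.0068) and KLHDC7A (0.00912). Nearest to LRRC8D were ATP1B1, the beta subunit of the sodium pump (0.00873), and CBX8 (0.00907). LRRC8B lay nearest to ITGA6 (0.0168) and NECTIN3 (0.0227), which shared its low WT 1 value, at 51.3 against 111 CPM in WT 2 for ITGA6. TCAIM (0.00862) and ZNF596 (0.0132) were nearest to LRRC8C, and FOXO3 (0.0141) and MTCL1 (0.0147) to LRRC8E. With 4 libraries and this many genes, close matches can arise for many patterns, and how close is usual was not measured.

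LRRC8B, LRRC8C and LRRC8D lie side by side on chromosome 1, and genes around them were compared by position. Of 41 other annotated genes that start within 1 Mb of the 3, 14 were tested: 3 fell (21.4%, beside 13.5% of all genes called in either direction), 0 rose and 11 did not pass. The 3 were guanylate-binding proteins, interferon-induced GTPases encoded in a cluster before LRRC8B. GBP1 had 0.637 and 0.368 CPM in CR and 70.2 and 122 CPM in WT, a 191-fold lower mean in CR (log2 fold change -7.56, SE 0.46; edgeR adjusted p = 0.000215). GBP2 had 0.199 and 0.532 CPM in CR and 11.4 and 18.6 CPM in WT (log2 fold change -5.35, and -6.19 without CR 2; edgeR adjusted p = 0.00102). GBP3 had 12.6 and 10.2 CPM in CR and 25.5 and 31.0 CPM in WT (edgeR adjusted p = 0.0153), a call lost without CR 1 (0.0949) or CR 2 (0.249). ZNF326, the next tested coding gene beyond LRRC8D, picked for its position, had 73.3 and 76.2 CPM in CR and 77.4 and 81.0 CPM in WT and did not pass. The GBP genes are close paralogs, and reads may have been split among them.

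**Figure D4:**
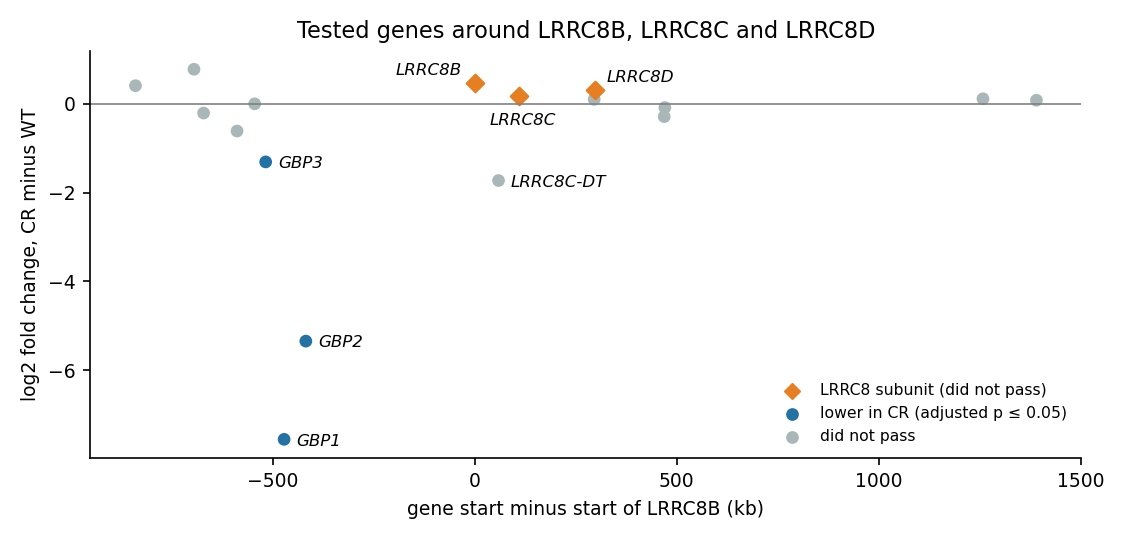
Log2 fold change (CR minus WT) of the tested genes around the LRRC8B, LRRC8C and LRRC8D cluster against the distance of each gene's start coordinate from that of LRRC8B (kb). GBP1, GBP2 and GBP3 are lower in CR, while the 3 LRRC8 genes lie between 0.17 and 0.46.

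Other genes of cell volume control were compared by lists, each beside the 13.5% of all genes that passed and the median log2 fold change of all genes tested, -0.01. Of 15 tested genes on the list of chloride cotransport and WNK-pathway kinases, 2 fell and 0 rose (median log2 fold change 0.11). SLC12A8, a member of the cotransporter family, had 0.518 and 0.286 CPM in CR and 30.3 and 31.5 CPM in WT, 76.9-fold lower in CR (log2 fold change -6.24, SE 0.36; edgeR adjusted p = 0.000185). WNK3, a chloride-sensitive kinase that acts on these cotransporters, had 0.199 and 0.123 CPM in CR and 2.44 and 5.03 CPM in WT (log2 fold change -4.49, and -3.88 without WT 2; edgeR adjusted p = 0.00432). The other 13 did not pass.

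Among 14 tested potassium channels, aquaporins and mechanosensors linked to swelling, 1 fell and 0 rose (median 0.06). AQP3, a water and glycerol channel, had 0.279 and 0.327 CPM in CR and 3.86 and 8.67 CPM in WT (log2 fold change -4.35, and -3.65 without WT 2; edgeR adjusted p = 0.00354). Of 10 tested genes of organic osmolyte transport and the tonicity response, 1 rose and 0 fell (median 0.45). That gene was SLC6A6, the taurine transporter that loads cells with an osmolyte released through LRRC8 channels. It had 256 and 210 CPM in CR and 107 and 141 CPM in WT, a ratio of 1.88 (log2 fold change 0.91, SE 0.22; edgeR adjusted p = 0.0364). The SLC6A6 call was lost without CR 1 (edgeR adjusted p = 0.369) or CR 2 (0.0767).

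Of 29 other chloride channels and regulators tested, 10 fell, 0 rose and 19 did not pass (median log2 fold change -0.64). The median of this list was -0.71 without WT 1 and -0.33 without WT 2. CLIC5, a CLIC family protein tied to the actin cortex, had 0.159 and 0.0409 CPM in CR and 17.0 and 42.8 CPM in WT (log2 fold change -8.14, SE 0.74; edgeR adjusted p = 0.000751). With 4 and 1 counts in CR its size is poorly fixed: the log2 fold change was -9.34 without CR 1, -7.50 without CR 2 and -7.32 without WT 2. The endosomal chloride-proton exchanger CLCN4 had 1.43 and 1.72 CPM in CR and 13.8 and 23.1 CPM in WT (edgeR adjusted p = 0.00139). ANO9, an anoctamin, had 0.398 and 0.123 CPM in CR and 37.7 and 9.84 CPM in WT, with a wide gap between the WT replicates. Its log2 fold change of -6.48 became -7.53 without CR 1, -5.86 without CR 2, -5.21 without WT 1 and -7.14 without WT 2. TTYH3 and TTYH2, of the tweety family once proposed as swelling-activated channels, were 2.45-fold and 2.86-fold lower in CR, and the TTYH2 call was lost without CR 1 (edgeR adjusted p = 0.0719) or CR 2 (0.156). CLIC3, with 4 and 1 counts in CR and 40 and 32 in WT, had a log2 fold change of -3.85, which became -5.05 without CR 1 and -3.21 without CR 2. ANO10, CFTR, ANO2 and ANO5, named after their values were seen, made up the 10. CLNS1A, once a candidate for the swelling-activated channel and also named after its values were seen, had 96.5 and 106 CPM in CR and 96.2 and 95.4 CPM in WT and did not pass.

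In the other large-pore channel families, 2 of 12 tested genes rose and 3 fell (median 0.32). GJA3, a connexin gene, rose: it had 8.44 and 6.87 CPM in CR and 0.257 and 0.168 CPM in WT, 36.1-fold higher in CR (log2 fold change 5.14, SE 0.44; edgeR adjusted p = 0.000629). The connexins GJA5 and GJB5 and the channel gene CALHM3 fell. GJA5 held 3 counts in CR and 101 in WT, and the ratio of WT to CR was 35.3 (exact binomial 95% interval 11.8 to 174, for counting error only). GJB5 was 2.70-fold lower and CALHM3 11.4-fold lower in CR, and both calls were lost with either CR library left out (edgeR adjusted p between 0.0566 and 0.392). PANX1, a pannexin and so a distant relative of LRRC8, was picked with its values in view. It had 39.1 and 36.2 CPM in CR and 32.4 and 60.6 CPM in WT and did not pass.

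Of 7 tested genes that make, break down, import or sense cGAMP, a messenger that LRRC8 channels can pass between cells, 1 rose and 0 fell (median 0.03). This was SLC46A3, a lysosomal solute carrier, with 871 counts in CR and 1 in WT. Its CR-to-WT ratio was 830 (exact binomial 95% interval 148 to 32810, for counting error only). The WT count came from WT 1, and the fitted log2 fold change of SLC46A3, 9.38, became 11.8 without WT 1 and 8.52 without WT 2. CGAS, the enzyme that makes cGAMP, and its receptor STING1 (TMEM173 in the table) did not pass, and were picked with their values in view. CGAS had 26.4 and 30.4 CPM in CR and 28.7 and 38.5 CPM in WT, and STING1 had 97.3 and 96.4 CPM in CR and 86.7 and 80.7 CPM in WT.

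**Figure D5:**
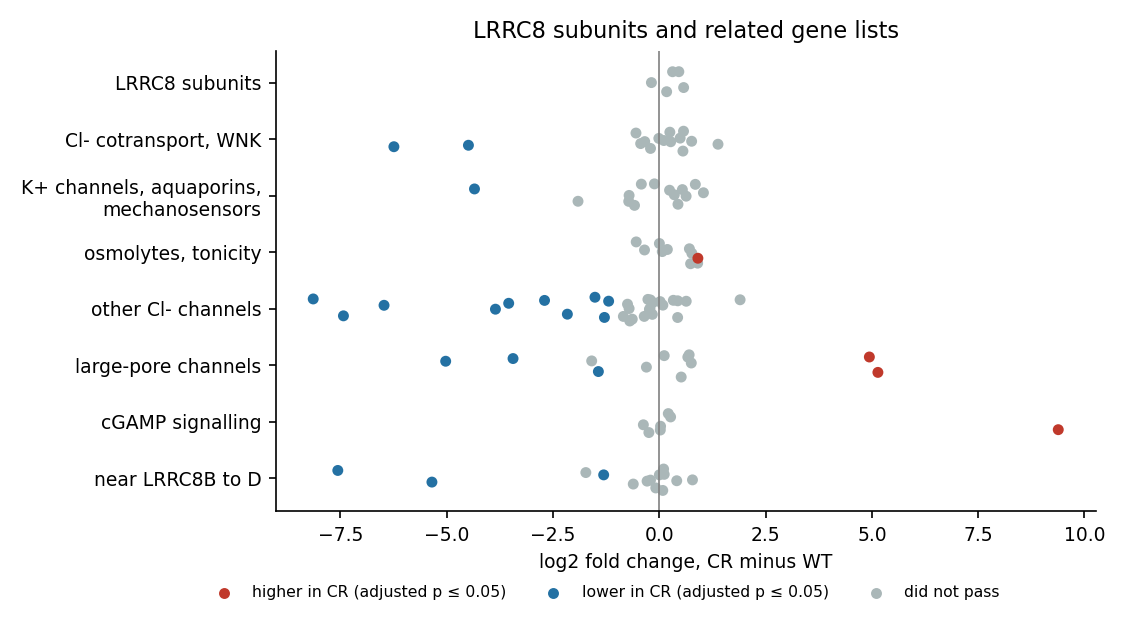
Log2 fold change (CR minus WT) of each tested gene, one row per list, with the LRRC8 subunits on top; red and blue points passed the edgeR test at an adjusted p of 0.05 and grey points did not. All LRRC8 points are grey and lie between -0.19 and 0.57, and the called chloride channels are all lower in CR.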

How the data were processed

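Of 2 tables from the authors, the one used holds raw counts per Ensembl gene for each library, deposited without scaling. Tools named in the submitters' processing notes are STAR 2.5.1a, HTSeq and DESeq, with build GRCh38.p7 and no role or order; neither annotation nor strand setting is given. Per the labels' protocols the libraries mark strand by dUTP. The other deposited table holds a normalized signal, the counts divided by 1 factor per library (1.0472, 1.0234, 0.9907 and 0.9787 for CR 1, CR 2, WT 1 and WT 2), and was not used for tests.

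All 4 libraries were fitted in R 4.3.3 with edgeR 4.0.16 (filterByExpr with a minimum count of 10, TMM factors, robust quasi-likelihood test, a two-sided test with no covariate); p-values were adjusted (Benjamini-Hochberg) over 17304 genes, with a threshold of 0.05. SE and 95% intervals were back-calculated from the F statistic and its degrees of freedom, and the size needed to pass from the largest unadjusted p that passed, 0.00677. DESeq2 1.42.0 and limma-voom (limma 3.58.1) were alternatives, with other factors, filters, a replicate block and each library left out. The code was tested on simulated counts. Of the 58051 rows, 20988 had no symbol and held 0.436% to 0.535% of the counts; they stayed in the fit under their identifiers. Places and lengths come from GENCODE 29 (57447 rows matched) and promoter windows from RefSeq on GRCh38.p14. All 129 listed genes matched, PACC1 and STING1 under older symbols. Named genes were all members, up to 6 called members of each list (otherwise the 2 with the smallest p), called neighbours, and the 2 nearest patterns of each member. The members and lists were chosen with earlier results of these data known. Some items that the rule names are not reported here.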

Additional observations from a re-analysis of the deposited data

How the results depend on the processing

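The LRRC8 changes kept their direction and stayed short of the threshold under every alternative run, except LRRC8B. Its log2 fold change ranged from -0.00894 to 1.15 with 1 library left out, and the number of subunits called from 0 to 1. With 1 library left out, the counts of called genes ranged from 1420 to 7879 over all genes, from 2 to 10 for chloride cotransport, 1 to 8 for potassium channels and aquaporins, 0 to 7 for osmolytes, 9 to 20 for other chloride channels, 3 to 10 for large-pore channels, 1 to 4 for cGAMP and 2 to 6 near LRRC8B. The high counts came without a WT library, when the CR pair alone sets the spread. The stricter filter kept genes with at least 1 CPM in every library, and so dropped genes near 0 in either group. It called 938 of 12688 genes (7.39%), 5 of 20 other chloride channels, 1 of 6 large-pore channels and 1 of 8 genes near LRRC8B. It called 0 of 13 genes of chloride cotransport, 0 of 8 potassium channels and aquaporins, and 0 of 6 of cGAMP. Without a filter 4 of 16 cotransport, 2 of 21 potassium channel and 2 of 11 osmolyte genes were called, beside 10.2% of all genes. DESeq2 (15.1% of all genes) and library size alone (13.6%) each called 2 of 14 potassium channel or aquaporin genes. Offsets for GC content and length, chosen after seeing the data, called 3645 of all genes (21.2%). They called 3 of 14 potassium channel or aquaporin genes and 2 of 10 osmolyte genes. Causes of these moves, other than those given, were not tested.

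In the labels, same-numbered replicates of CR and WT are linked by the number alone. The correlation of same-numbered deviations was -0.174 over all genes tested and -0.22 over genes with a mean log2 CPM of 3 or more. These values cannot show whether such replicates were handled together. With the replicate number as a block, 2775 of all genes (16%), 4 of 15 cotransport and 3 of 10 osmolyte genes were called, and no LRRC8 gene. Crossing the numbers, added after seeing the data, called 3474 of all genes (20.1%). It called 4 of 15 cotransport, 3 of 14 potassium channel and 3 of 10 osmolyte genes.

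Per coding length, levels in CR and WT were 21.2 and 24.1 RPKM for LRRC8A, 13.02 and 9.47 for LRRC8B, 12.5 and 11.1 for LRRC8C, 27.8 and 22.4 for LRRC8D, and 1.17 and 0.789 for LRRC8E. The shares of the family were then 27.9% and 35.5% for LRRC8A, 17.2% and 13.5% for LRRC8B, 16.5% and 16.4% for LRRC8C, 36.8% and 33.4% for LRRC8D, and 1.55% and 1.17% for LRRC8E. Per exon base shared with no other gene, an alternative added after seeing the data, levels were 15.8 and 12.8 RPKM for LRRC8D, 2.52 and 1.70 for LRRC8E, and 3.94 in CR for LRRC8B. Shares were 28.3% and 36.2% for LRRC8A, 7.61% and 7.60% for LRRC8C, 7.25% and 5.50% for LRRC8E, and 11.3% in CR for LRRC8B. With the offsets for GC content and length, levels were 3.65 RPKM for LRRC8B and 2.45 RPKM for LRRC8C in CR and 12.01 RPKM for LRRC8D in WT, and shares 11.7% for LRRC8B in CR, and 7.86% in CR and 8.36% in WT for LRRC8C. Library size alone gave LRRC8D levels of 15.0 RPKM in CR and 11.7 RPKM in WT. Depth limits LRRC8E most, with 228 counts over the 4 libraries.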

Other observations

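The replicates of each group differed along transcript composition and length. In the fifth of genes with the highest GC content the median log2 ratio of replicate 1 to replicate 2 was 0.0435 in CR and 0.468 in WT. In the fifth with the lowest GC content it was -0.0419 in CR and -0.538 in WT. The Spearman coefficient of that ratio with transcript length was 0.495 in CR and -0.402 in WT, across 9907 genes that are not independent replicates. LRRC8A, with 57.6% GC, went the other way, with a log2 ratio of WT 1 to WT 2 of -0.30 beside a median of 0.28 in 605 genes of like GC content. LRRC8E, at 57.5% GC, did so too, with -0.19 beside 0.28 in 600 genes.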
